A study of Homo sapiens with 6 samples.

Results

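The genes of the ATF4 response, with the cytosolic tRNA synthetases that belong to it, were followed in MDA-MB-231 cells, a widely used line from a human triple-negative breast tumour that grows with a mesenchymal shape. The list names 32 genes, and a member was taken wherever a probe set of the array carries that single gene symbol in the platform annotation. This gave 62 probe sets for 31 members, out of 19775 genes with such a probe set. MARS1, the methionyl-tRNA synthetase gene, appears only in 3 probe sets that also carry a microRNA's symbol and was not analysed here. The study compared 3 arrays labelled GATA3, from cells transduced with a lentivirus for GATA3 and eGFP, with 3 GFP control arrays, from cells transduced with a lentivirus for eGFP alone. Both groups were sorted for GFP, grown in high-glucose medium with pyruvate and 10% serum, and harvested 2 days after seeding, and no stress-inducing agent is named for either. The promoter that drives the introduced gene, and whether the sorted cells were a pool or a clone, are not given in the sources used here. Nothing in the labels states that the 3 samples of a group came from separate cultures, so p-values cover only the spread among these samples, which may be technical.

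ATF4 is a basic leucine zipper transcription factor whose protein is made mainly when the initiation factor eIF2 is phosphorylated by a stress kinase, for example when amino acids run short or unfolded protein collects in the endoplasmic reticulum. Most of this control acts on translation of the ATF4 messenger RNA, which an expression array does not read. With partners such as the C/EBP proteins, ATF4 switches on genes for amino acid synthesis and uptake, mitochondrial folate enzymes, many cytosolic tRNA synthetases, and feedback proteins that end the response. The sites that ATF4 and C/EBP factors bind together carry the letters TGATGNAA, often TGATGCAA, or the reverse complement.

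Those letters were looked for on both strands of the RefSeq promoter windows of build GRCh38.p14, each 300 bases long with 250 bases before the gene's start and 50 from it. Of the 26 members with a window, 10 held a match (38.5%), against 1217 of 27305 genes in the whole table (4.46%). Matches stood in the windows of 7 of 10 member synthetases and of 3 of 16 other members. Of the synthetase and scaffold genes outside the membership, 0 of 9 cytosolic and 1 of 14 mitochondrial ones held a match. The letters were not particular to the members. Of 33 other genes of the integrated stress response, 9 held a match (27.3%). The form TGATGCAA was found for 8 members and for 295 genes (1.08%) in all. A match describes the letters alone. The windows below are shown because these genes hold the letters and their measured changes can be set beside them. Each is printed 5′ to 3′ in the direction of its gene, with the matched letters in capitals.
AARS1: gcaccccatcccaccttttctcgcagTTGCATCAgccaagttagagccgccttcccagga
NARS1: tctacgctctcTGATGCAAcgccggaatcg
ASNS: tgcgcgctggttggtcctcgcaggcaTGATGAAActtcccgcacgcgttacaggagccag
CEBPG: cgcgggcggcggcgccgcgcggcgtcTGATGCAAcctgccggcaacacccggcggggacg
CHAC1: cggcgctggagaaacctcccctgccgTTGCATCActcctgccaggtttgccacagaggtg
IARS1: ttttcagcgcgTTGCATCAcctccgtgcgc
CARS1: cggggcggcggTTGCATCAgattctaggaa
TARS1: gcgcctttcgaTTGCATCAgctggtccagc
GARS1: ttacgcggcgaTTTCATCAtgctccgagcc

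The printed bases lie at chr16:70289660-70289719 (minus strand) for AARS1, chr18:57621804-57621833 (minus) for NARS1, chr7:97872443-97872502 (minus) for ASNS, chr19:33374045-33374104 (plus) for CEBPG and chr15:40953236-40953295 (plus) for CHAC1. Those of IARS1, CARS1, TARS1 and GARS1 lie at chr9:92293692-92293721 (minus), chr11:3057407-3057436 (minus), chr5:33440956-33440985 (plus) and chr7:30594834-30594863 (plus). The match began 187 bases before the annotated start in AARS1, 68 in ASNS, 42 in CEBPG and 209 in CHAC1. It began 13 bases before the start in IARS1, 33 in GARS1 and 2 in CARS1, where it runs across the start, and at base 3 of the transcript in TARS1 and base 15 in NARS1. In NARS1, ASNS and CEBPG the match stood on the strand of the gene, and in the other 6 on the opposite strand.

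Before the members are described, the check of the labels has to be given. GATA3 itself was lower in the arrays labelled GATA3. Its brightest probe set read 7.93, 7.94 and 7.32 in the arrays labelled GATA3, against 9.37, 9.35 and 9.45 in the GFP control, on the log2 scale of the deposited GCRMA values, 3.16-fold lower (limma adjusted p 0.00238). The readings of GATA3 go against the label, and every direction below rests on the labels as given. Whether the array reads the introduced copy was not tested. GATA3 replicate 3 correlated with the other 2 arrays of its group at 0.984 and 0.986, against 0.995 to 0.997 for the other pairs within a group, and it alone carries a second raw-file date. Its 75th percentile was 7.78, against 7.97 to 8.04 on the other 5 arrays. Among the 3 arrays labelled GATA3 it lay farthest from their median in 61.4% of all genes and in 60.7% of the measured members. The line's markers VIM, CD44, AXL and KRT18 read over 12 on every array. ZEB1, a mesenchymal factor, read 9.10 to 9.19 in the arrays labelled GATA3 and 11.02 to 11.11 in the GFP control, and KRT18, an epithelial keratin, 14.27 to 14.35 and 13.72 to 13.82. The part of such shifts in the changes of the members was not tested. The receptor genes ESR1, PGR and ERBB2 had been taken as low in this line. ERBB2 read 9.245 to 9.568 in the arrays labelled GATA3 and 9.514 to 9.615 in the GFP control, so its brightest probe set was not near the floor. No sample known to be high in ERBB2 is among these arrays, so whether this level is low for the gene was not tested. ESR1 read 4.015 to 4.451 in the arrays labelled GATA3 and 4.015 in the GFP control. PGR and the immune and endothelial markers PTPRC, CD3E, PECAM1 and VWF stayed at or near the floor of 2.16. The fibroblast marker DCN was also near it, while COL1A1 read 6.48 to 6.70 in the arrays labelled GATA3 and 6.58 to 6.68 in the GFP control.

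As a group the members showed no common direction. Among the 28 measured members there were 6 rises, 2 falls and 20 without a call. The threshold was an adjusted p of 0.05 in limma's moderated test with Benjamini-Hochberg adjustment over all 23785 tested probe sets. The rises were PCK2, NARS1, AARS1, SARS1, TRIB3 and ASNS, and the falls LARS1 and PPP1R15A. Over all 10814 genes measured, each by its brightest probe set, 14.8% were called higher and 14.5% lower, against 21.4% and 7.14% of the measured members. The median log2 change was 0.00 for the members and -0.02 for all genes, and the median size of the change, whatever its sign, was 0.18 and 0.21. Only PCK2 changed at least 2-fold, against 4.23% of all genes with a rise, and 3.05% with a fall, of that size. The arrays of the groups did not overlap in 8 members that were higher and 6 that were lower, against 22.2% and 27.2% of all genes. By probe set, 6 of the 50 tested rose and 5 fell, with 11.3% and 14% of all tested probe sets called in those directions. In bulk RNA a change in the share of cells that express a gene and a change in RNA per cell cannot be told apart.

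The count of rises was 7 without GATA3 replicate 3, and that of falls 3. It was 3 rises without GATA3 replicate 1, GFP control replicate 2 or GFP control replicate 3, and 1 fall without GATA3 replicate 2 or any 1 GFP control array. The counts over all genes moved as well. The 1601 genes called higher became 2051 without GATA3 replicate 3, 1210 without GATA3 replicate 1 and 1079 without GFP control replicate 2. The 1571 called lower became 1787 without GATA3 replicate 3 and 1059 without GATA3 replicate 2.

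**Figure D1:**
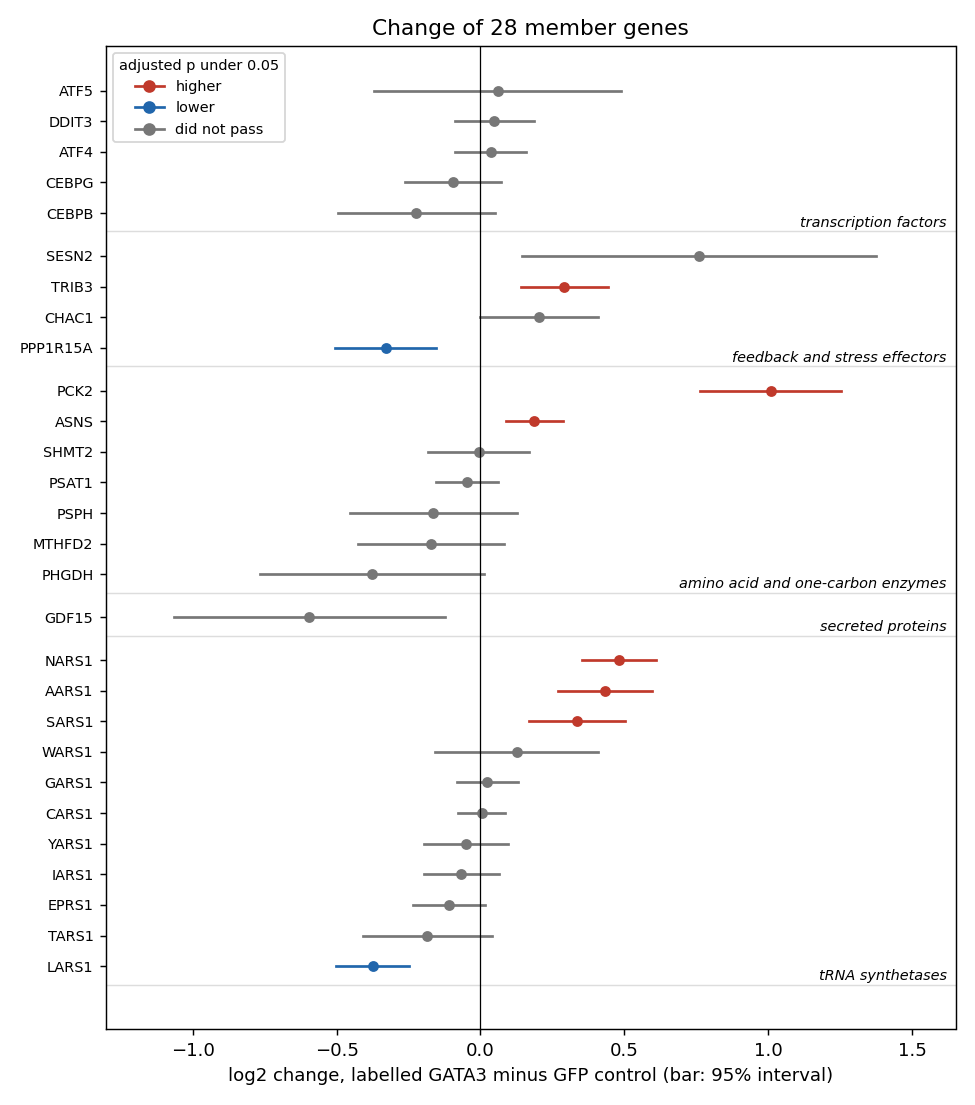
Log2 change (horizontal axis) of the 28 measured member genes, arrays labelled GATA3 minus GFP control, as points with 95% intervals, grouped by role and coloured by call. PCK2 stands farthest right at 1.01, and the intervals of the transcription factors all include 0.

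The transcription factors at the head of the response gave no call by their brightest probe sets. By these, none of the 5 measured passed in limma, against 14.8% of all genes called higher and 14.5% lower. By the same probe sets 0 had an unadjusted p under 0.05, a share not counted for all genes, and the changes lay between -0.22 and 0.06. Dimmer probe sets of CEBPG and ATF5, given below, had unadjusted limma p-values of 0.00109 and 0.0498 and changes of -0.35 and -0.36. ATF4 read 12.51, 12.47 and 12.56 in the arrays labelled GATA3, against 12.56, 12.45 and 12.42 in the GFP control. The arrays of the groups overlapped, and the log2 change was 0.04 (95% interval -0.09 to 0.16, adjusted p 0.612), so the interval holds no change over 0.16. DDIT3, which encodes CHOP, the factor that links long stress to cell death, read 9.07, 9.04 and 9.15 in the arrays labelled GATA3, against 9.04, 9.06 and 9.02 in the GFP control. Its change was 0.05 (95% interval -0.09 to 0.19, adjusted p 0.549), again with overlapping groups.

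ATF5, a related factor that is also controlled at translation, had 4 tested probe sets, with changes of 0.06, -0.36, 0.17 and 0.32. None of them passed. Its brightest probe set read 9.28 on GATA3 replicate 3, above 8.76 and 8.69 on the other 2 arrays of that group. CEBPB, a partner of ATF4, had a change of -0.22 (adjusted p 0.193), with values of 12.07, 12.07 and 11.70 in the arrays labelled GATA3 and 12.19, 12.11 and 12.20 in the GFP control. The groups did not overlap, but GATA3 replicate 3 lay apart from its group. CEBPG, a C/EBP protein that dimerises with ATF4, did not pass by its brightest probe set (-0.09, adjusted p 0.342). Its other probe set did pass. It read 9.11, 9.07 and 9.04 in the arrays labelled GATA3, against 9.39, 9.50 and 9.38 in the GFP control (-0.35, adjusted p 0.00917). NUPR1, a small stress-induced chromatin protein, was under the detection level of 4 on all arrays and was not tested.

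Of the 4 feedback and effector genes, 1 rose and 1 fell (25% each, against 14.8% and 14.5% of all genes). With only 4 genes these shares say little about the group. TRIB3, a pseudokinase that binds ATF4 and limits its activity, read 9.11, 9.10 and 9.00 in the arrays labelled GATA3, against 8.77, 8.73 and 8.83 in the GFP control. It rose 1.22-fold, by 0.29 on the log2 scale (SE 0.06, adjusted p 0.0207), with no overlap between the groups. Its dimmer probe set gave 0.07 (adjusted p 0.708). The call of TRIB3 was lost without any 1 array other than GATA3 replicate 3, at adjusted p-values of 0.0511 to 0.0778. PPP1R15A, the GADD34 subunit that steers a phosphatase to eIF2 and so ends the response, fell. It read 9.83, 9.80 and 9.64 in the arrays labelled GATA3, against 10.16, 10.05 and 10.05 in the GFP control, a log2 change of -0.33 (SE 0.07, adjusted p 0.0230). Its other probe set gave -0.39 (adjusted p 0.0559). The call was lost without GATA3 replicate 2 (adjusted p 0.0605) and without GFP control replicates 1, 2 or 3 (0.0762, 0.0702 and 0.0647).

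SESN2 had the second-largest change of the members but did not pass. Sestrin 2 senses leucine and holds back the growth kinase mTORC1. It read 8.14, 7.61 and 7.16 in the arrays labelled GATA3, against 6.84, 6.86 and 6.92 in the GFP control. All 3 arrays labelled GATA3 lay above the control arrays, but they were spread over almost a full log2 unit. The change was 0.76 (SE 0.25, adjusted p 0.0777), without GATA3 replicate 3 it was 1.00 (adjusted p 0.0161), and without GATA3 replicate 1 it was 0.51 (adjusted p 0.0913). Its other probe set, close to the detection level, gave 0.23 (adjusted p 0.371). CHAC1, an enzyme that breaks down glutathione, read 6.02, 6.17 and 6.11 in the arrays labelled GATA3, against 5.89, 5.82 and 6.0 in the GFP control. Its groups did not overlap, by a narrow margin, and the change of 0.20 (SE 0.08) had an adjusted p of 0.132.

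**Figure D2:**
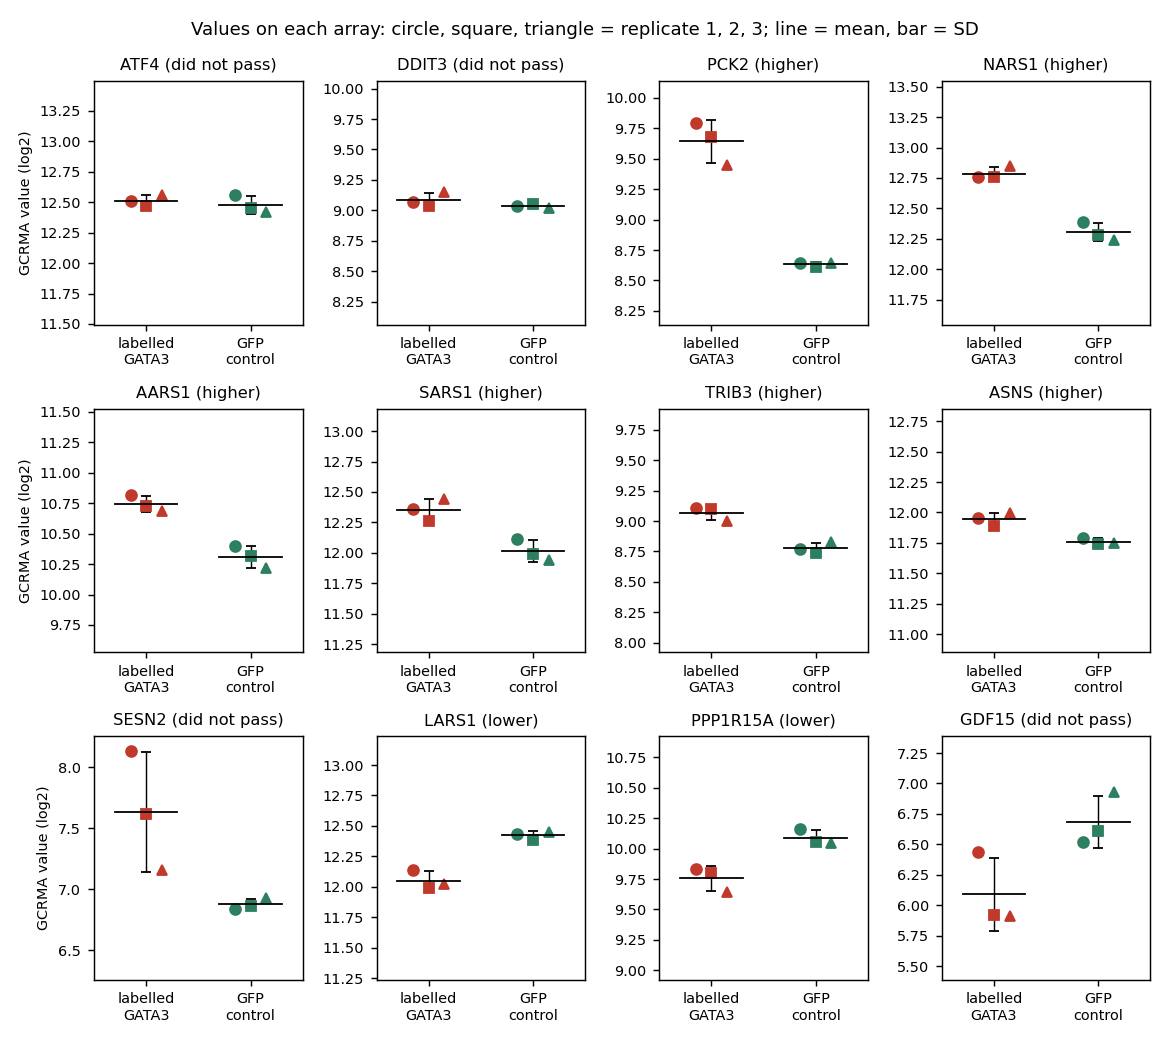
GCRMA values on the log2 scale (vertical axis, each panel spanning the same 2 units) of 12 members on the 3 arrays labelled GATA3, left, and the 3 GFP control arrays, right. Points are arrays, lines means and bars SDs; ATF4 and DDIT3 overlap between the groups, PCK2 is separated by about 1 unit, and SESN2 has a wide spread in the arrays labelled GATA3.

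Of the 7 measured amino acid and one-carbon enzymes, 2 rose and none fell (28.6% and 0%, against 14.8% and 14.5% of all genes). With so few genes these shares say little about the group. PCK2 and ASNS rose, and no measured serine or folate member passed by its brightest probe set. PCK2, the mitochondrial phosphoenolpyruvate carboxykinase, read 9.80, 9.68 and 9.45 in the arrays labelled GATA3, against 8.64, 8.61 and 8.65 in the GFP control. It was 2.01-fold higher, a log2 change of 1.01 (SE 0.10, 95% interval 0.76 to 1.25, adjusted p 0.00154), and the lowest array labelled GATA3 lay far above the highest control array. Of all measured genes, 4.26% had a larger rise. ASNS, asparagine synthetase, a classical ATF4 target, read 11.95, 11.89 and 11.99 in the arrays labelled GATA3, against 11.79, 11.74 and 11.75 in the GFP control. The arrays of a group lay so close together that its small rise of 0.19 (SE 0.04, 1.14-fold) passed, with an adjusted p of 0.0227. The call of ASNS was lost without GATA3 replicate 1 (adjusted p 0.0669) and without GFP control replicates 1, 2 or 3 (0.0502, 0.0850 and 0.0787).

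PHGDH, PSAT1 and PSPH carry out the steps of serine synthesis from a glycolytic intermediate. PHGDH, the first of them, read 6.75, 6.53 and 6.98 in the arrays labelled GATA3, against 6.92, 7.28 and 7.20 in the GFP control (-0.38, SE 0.16, adjusted p 0.137). The groups overlapped. PSAT1, the transaminase, gave -0.05 (adjusted p 0.459) by its brightest probe set and 0.19 (adjusted p 0.0594) by the other. PSPH, the phosphatase of the last step, gave -0.16 (adjusted p 0.342), and -0.53 (adjusted p 0.102) by a dimmer probe set that read 10.16, 10.25 and 9.66 in the arrays labelled GATA3 and 10.46, 10.39 and 10.80 in the GFP control.

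SHMT2 and MTHFD2 move serine carbon through the mitochondrial folate pathway. The 3 probe sets of SHMT2 gave -0.01, -0.12 and -0.26, and the last of these passed (adjusted p 0.0153). It read 11.56, 11.52 and 11.41 in the arrays labelled GATA3, against 11.78, 11.73 and 11.78 in the GFP control, while the brightest probe set overlapped between the groups. MTHFD2 gave -0.17 (95% interval -0.43 to 0.08, adjusted p 0.262). All 3 probe sets of ALDH1L2, the mitochondrial folate dehydrogenase, stood at the floor of 2.16 on every array.

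The secreted members were at the floor or dim. Both probe sets of STC2, stanniocalcin 2, were at the floor on all 6 arrays. GDF15, a stress cytokine of the TGF-beta family, had 2 of its 3 probe sets at the floor. The third carries the suffix for probes shared between similar sequences, so its identity is uncertain. It read 6.44, 5.92 and 5.91 in the arrays labelled GATA3, against 6.52, 6.61 and 6.93 in the GFP control. The groups did not overlap, and the change of -0.59 (SE 0.19) had an adjusted p of 0.0730. It was -0.77 (adjusted p 0.0316) without GATA3 replicate 1, -0.51 (0.146) without GATA3 replicate 3 and -0.47 (0.194) without GFP control replicate 3.

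The tRNA synthetases, which charge each tRNA with its amino acid, had calls in both directions. Of the 11 measured, 3 rose and 1 fell (27.3% and 9.09%, against 14.8% and 14.5% of all genes). With so few genes these shares are imprecise and say little about the group, and the median change was 0.00. NARS1, which charges asparagine, read 12.75, 12.75 and 12.85 in the arrays labelled GATA3, against 12.39, 12.28 and 12.24 in the GFP control. It was 1.40-fold higher (log2 change 0.48, SE 0.05, adjusted p 0.00226). AARS1, for alanine, read 10.82, 10.73 and 10.68 in the arrays labelled GATA3, against 10.40, 10.31 and 10.22 in the GFP control, 1.35-fold higher (0.43, SE 0.07, adjusted p 0.00707). In both genes every array labelled GATA3 lay above every control array, by more than the spread within either group.

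SARS1, for serine, read 12.36, 12.26 and 12.44 in the arrays labelled GATA3, against 12.12, 11.99 and 11.94 in the GFP control. It rose 1.26-fold (0.34, SE 0.07, adjusted p 0.0177). Its other probe set gave -0.19 (adjusted p 0.175), the opposite sign, and the mean of both gave 0.07 (adjusted p 0.442). The call of SARS1 was lost without GATA3 replicate 1 (adjusted p 0.0561) and without GFP control replicates 2 or 3 (0.0720 and 0.0646), so this rise is less certain than those of NARS1 and AARS1.

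LARS1, which charges leucine, was the synthetase that fell. It read 12.14, 11.99 and 12.02 in the arrays labelled GATA3, against 12.44, 12.38 and 12.45 in the GFP control, 1.30-fold lower (-0.38, SE 0.05, adjusted p 0.00478). All 4 of its tested probe sets had negative changes, between -0.45 and -0.31, and the one with the largest change passed as well (adjusted p 0.0355).

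The other 7 synthetases had changes between -0.18 and 0.13. For CARS1 (cysteine), GARS1 (glycine), IARS1 (isoleucine) and YARS1 (tyrosine) the 95% intervals were -0.08 to 0.09, -0.08 to 0.13, -0.20 to 0.06 and -0.20 to 0.10. The other 2 probe sets of CARS1 gave -0.19 (adjusted p 0.125) and -0.30 (adjusted p 0.0586), in both of which every array labelled GATA3 lay below every control array. IARS1 had an adjusted p of 0.387, and -0.12 with 0.0401 without GATA3 replicate 3. EPRS1, the bifunctional enzyme for glutamate and proline, gave -0.11 (adjusted p 0.172), and its other 2 probe sets had opposite signs. TARS1, for threonine, gave -0.18 (adjusted p 0.189), with GATA3 replicate 3 at 13.38 below 13.71 and 13.63 on the other 2 arrays of its group. WARS1, for tryptophan, is known to be induced by interferon as well as by ATF4. Its values of 11.02, 10.74 and 10.64 in the arrays labelled GATA3 overlapped with 10.80, 10.61 and 10.62 in the GFP control (0.13, adjusted p 0.449).

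**Figure D3:**
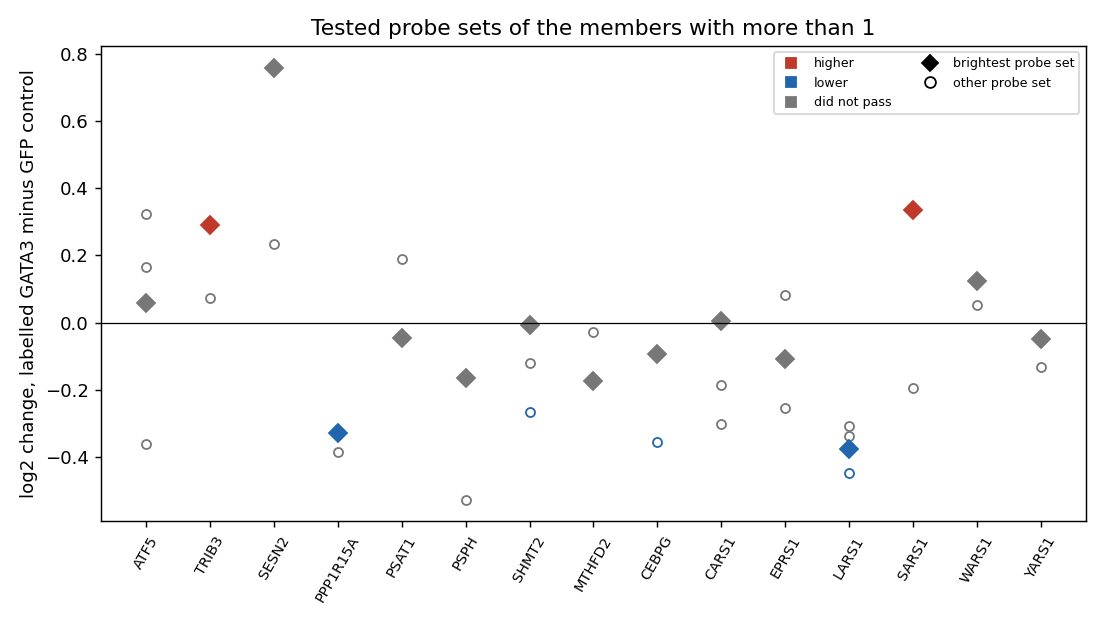
Log2 change (vertical axis, arrays labelled GATA3 minus GFP control) of each tested probe set of the 15 members with more than 1; diamonds mark the brightest probe set, circles the others, and colours the call. The probe sets of LARS1 lie together below 0, while those of ATF5, PSAT1, CARS1, EPRS1 and SARS1 lie on both sides of 0, and no member had probe sets that passed in opposite directions.

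The 9 printed windows can be set beside these values. The genes AARS1, NARS1 and ASNS rose, and CEBPG, CHAC1, IARS1, CARS1, TARS1 and GARS1 did not pass by their brightest probe sets, with changes between -0.18 and 0.20. Of the other members that rose, PCK2, SARS1 and TRIB3 had windows without the letters, and so did PPP1R15A, which fell. LARS1 had no window here. The letters close to the start were thus found both in members that rose and in members that did not pass.

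The synthetases outside the membership gave no call in either compartment. Over all genes, 14.8% were called higher and 14.5% lower, and the share with an unadjusted p under 0.05 was not counted. Of 7 measured genes of the other cytosolic synthetases and complex scaffolds, none passed in limma, 0 had an unadjusted p under 0.05, and their changes lay between -0.15 and 0.13. The brightest of them, KARS1, for lysine, gave -0.15 (adjusted p 0.220). Of 15 measured mitochondrial synthetases none passed in limma and 1 had an unadjusted p under 0.05, with a median of -0.07 and a range of -0.33 to 0.25. IARS2, the brightest, read 12.87 ± 0.07 in the arrays labelled GATA3 and 12.74 ± 0.01 in the GFP control (SD, n = 3 each, limma adjusted p 0.0637), and it passed without GATA3 replicate 3 (0.18, adjusted p 0.00746). Whether the member synthetases differ from these genes was not tested.

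Other genes of the integrated stress response had calls in both directions, as did the genes at large. Among the 35 measured there were 8 rises and 6 falls (22.9% and 17.1%, against 14.8% and 14.5% of all genes), and the median was 0.02. SLC7A11, the cystine importer, was 2.24-fold higher, at 13.49 ± 0.13 in the arrays labelled GATA3 and 12.32 ± 0.09 in the GFP control (SD, n = 3 each, limma adjusted p 0.000503). SLC1A4, a carrier of alanine and serine, rose 3.28-fold by its brightest probe set, and its other 2 probe sets rose as well (log2 changes of 2.00 and 1.89). VLDLR, a lipoprotein receptor that ATF4 can induce, had the largest rise of the list, 32.1-fold or 5.0 on the log2 scale (adjusted p 1.26e-05). NIBAN1, a stress-induced regulator of translation, had a log2 change of -1.18 (adjusted p 0.000364), and its other probe set one of -1.47.

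The 4 kinases that phosphorylate eIF2 were picked out once their values were known. EIF2AK3, the kinase PERK of the endoplasmic reticulum, rose 1.56-fold (0.64, SE 0.07, adjusted p 0.00285), and EIF2AK1, which responds to low haem, rose 1.27-fold (0.34, SE 0.04, adjusted p 0.00349). EIF2AK2, the interferon-induced kinase PKR, fell, with a log2 change of -0.51 (adjusted p 0.0281). That call was lost without any 1 array other than GATA3 replicate 3 (adjusted p-values of 0.0540 to 0.101). The dimmer probe sets of EIF2AK2 gave -0.94 (adjusted p 0.0160) and -0.28 (adjusted p 0.113). EIF2AK4, the amino acid sensor GCN2, gave -0.22 (adjusted p 0.307), and 0.21 by its other probe set. These are levels of the kinase messenger RNAs and say nothing of their activity.

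Of 14 measured folate, serine and glycine enzymes outside the membership, 2 rose and 4 fell (14.3% and 28.6%, against 14.8% and 14.5% of all genes), with a median of 0.01. ALDH1L1, the cytosolic counterpart of ALDH1L2, rose 1.86-fold (0.90, SE 0.21, adjusted p 0.0294), with a dim signal of 5.99 ± 0.17 in the arrays labelled GATA3 and 5.09 ± 0.375 in the GFP control (SD, n = 3 each). GLUD1, glutamate dehydrogenase, fell by 0.62, FPGS, which adds glutamate to folates, by 0.34, and MTHFD2L, a relative of MTHFD2, by 0.33. ALDH1L1 and FPGS each lost the call in 5 of the 6 fits with 1 array left out, FPGS keeping it only without GFP control replicate 2 and ALDH1L1 only without GFP control replicate 3. GLUD1 lost it in 5, keeping it without GFP control replicate 2, and MTHFD2L in 4, keeping it without GATA3 replicates 1 or 3. The adjusted p-values of those lost calls ran from 0.0527 to 0.127. The other probe set of GLUD1 fell as well (-0.65, adjusted p 0.00744). None of the dimmer tested probe sets of MTHFD2L passed, and their changes lay between -0.66 and 0.55.

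Of 19 measured genes of the unfolded protein response, 5 rose and none fell (26.3% and 0%, against 14.8% and 14.5% of all genes), with a median of 0.14. At an unadjusted p under 0.05 in limma, 6 were higher and 0 lower. The share of all genes at that unadjusted level was not counted, so these 2 numbers have no background to be read against. EDEM1, which sends misfolded glycoproteins to degradation, rose 1.74-fold (adjusted p 0.0138), and its call was lost without GFP control replicates 1, 2 or 3 (0.0513, 0.0545 and 0.0608). ERN1, the stress sensor IRE1, rose 1.68-fold (adjusted p 0.00515), although its dimmer probe set gave -0.36 (adjusted p 0.187). The co-chaperone genes DNAJB11 and DNAJB9 rose 1.37-fold and 1.31-fold. HSPA5, which encodes the chaperone BiP, gave 0.07 (adjusted p 0.200). A further list held regulators that can act on members without ATF4, together with genes that only report on such pathways, such as IFIT1. Of its 7 measured genes, 1 rose and 4 fell (14.3% and 57.1%, against 14.8% and 14.5% of all genes). Their median was -0.30. CDKN1A, the cell cycle inhibitor p21, rose 1.97-fold (adjusted p 0.00112), and IFIT1 and IRF1, interferon response genes, fell by 1.42 and 0.98 on the log2 scale, and MYC by 0.30. The call of IRF1 was lost without GFP control replicates 1, 2 or 3 (0.0533, 0.0553 and 0.0613). The part of these changes in those of the members was not tested.

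**Figure D4:**
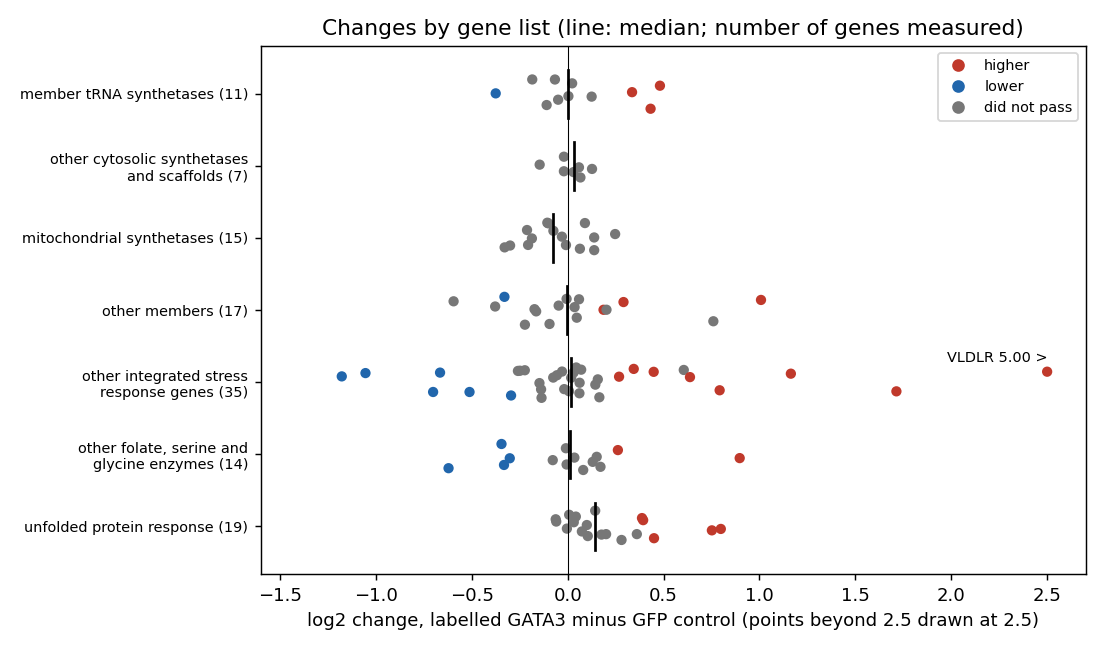
Log2 change (horizontal axis, arrays labelled GATA3 minus GFP control) of the measured genes of 7 gene groups; each point is a gene coloured by call, black lines are medians and VLDLR at 5.0 is drawn at the edge. Calls are present among the member synthetases and absent from both other synthetase groups, a difference that was not tested. Of all genes, 14.8% were called higher and 14.5% lower. The medians of the 7 groups drawn lie between -0.07 and 0.14.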

How the data were processed

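RNA from 6 samples of MDA-MB-231 cells was read on Affymetrix arrays, each giving 54675 probe sets in 1 colour. The authors deposited GCRMA values, taken here as log2, per the submitters' processing notes; its version and the scale are not given in the sources used here, and log2 is what their range fits. GCRMA leaves dim probe sets at a common floor.

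Values were used as deposited. The 62 control probe sets were left out, and testing was limited to the 23785 probe sets over 4, taken as the detection level, on at least 3 of 6 arrays. Groups and replicates came from the labels. The groups were compared with limma 3.58.1 in R 4.3.3 (lmFit, eBayes with intensity trend, no covariates) with Benjamini-Hochberg adjustment over all tested probe sets and a threshold of 0.05, and the step was tested on simulated data. A gene was represented by its brightest tested probe set, and only probe sets with 1 symbol were named. Members and lists were chosen with earlier results of these data known. Values on each array were given for ATF4, DDIT3, the members that passed and others whose spread or probe sets matter; of each other list, the 4 called genes that changed most were named, or the brightest where none passed, and the eIF2 kinases and HSPA5 were added after their values had been seen. Promoter windows are RefSeq's. The alternatives were 15, among them other filters, scalings and weights, a replicate block and each array left out. The number of arrays limits the precision.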

Additional observations from a re-analysis of the deposited data

How the results depend on the processing

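PCK2, NARS1 and AARS1 kept their call in all 15 alternatives, and LARS1 in the 14 that gave it a value. TRIB3 lost its call in 7, ASNS and SARS1 in 6 each and PPP1R15A in 5, and no member's call turned its direction. ATF4 and DDIT3 did not pass in any of the 15. SESN2 passed in 4 and GDF15 in 3. With 1 array left out, the members called higher numbered 3 to 7 and those called lower 1 to 3. All genes called higher numbered 1079 to 2051 and lower 910 to 1787, and all probe sets 1796 to 3581 higher and 1801 to 3752 lower; such fits have fewer arrays. Without a filter on low values, 1 member, 904 genes and 1767 probe sets were lower. With array weights, a fit that stopped before full convergence, 7 members were lower, 2847 genes were higher and 2945 lower, and 5195 probe sets were higher and 6642 lower. When only probe sets ending in _at were used, 1 member was lower. With the replicate number as a block, 3 members were higher, 1030 genes lower and 2106 probe sets lower; TRIB3, ASNS and SARS1 lost their calls (adjusted p 0.0900, 0.0615 and 0.0522). The deviations of samples of the same number had correlations of -0.135, 0.159 and -0.109, so no clear shared deviation by number was seen. With 3 arrays per group this cannot show whether the numbers pair the arrays. Quantile and cyclic loess scaling moved the median of all genes to 0.02 and 0.01. The signal of NUPR1, STC2 and ALDH1L2 was too dim to compare.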
